A study of Mus musculus with 2 samples.

Results

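The 6 genes described here are Isg15, the enzymes that attach and remove its protein product (Uba7, Ube2l6, Herc6 and Usp18), and the exonuclease gene Isg20. They were chosen by name: a probe belonged to them when its RefSeq accession resolved to one of these symbols, whatever its signal. The set was chosen with earlier results of these data known, so its counts beside all genes are descriptions only. The 6 genes had 9 of the 39429 non-control probes on each array, and they were 6 of 20659 genes with a named probe. All 6 were among the 15022 genes whose brightest probe was well above background, by the flag of the scanner software, on both arrays. Isg20 carries the ISG prefix because interferon induces it, but its product takes no part in conjugating ISG15.

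RNA from RAW246.1 cells, a cultured mouse line labelled as macrophage and grown in DMEM medium, was labelled with Cy3 and hybridised to 2 one-colour Agilent arrays. One array, called PBS here, held RNA from mock-treated cells, and the other, called miR-122 here, held RNA from cells given synthetic miR-122, a microRNA abundant in hepatocytes. The treatment text states 5 μg/mL synthetic miR-122 for both samples, no exposure time is given, and the title of the miR-122 sample contradicts its source name and description, which were followed. Directions rest on that label, and no gene measured here checks it. With 1 array per group there is no replicate, no test and no p-value, and differences between cultures or array positions cannot be told apart from differences between treatments.

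ISG15 is a small protein built of a pair of ubiquitin-like folds, and it can be joined to lysines of other proteins in a reaction called ISGylation. The E1 enzyme UBA7 activates it, the E2 enzyme UBE2L6 carries it, and an E3 ligase of the HERC family places it on its target. In mice that ligase is HERC6, while human cells use HERC5. USP18 removes ISG15 from its targets and also dampens signalling at the type I interferon receptor. Free ISG15 is secreted as well and acts on lymphocytes through the integrin LFA-1. Type I interferon switches on these genes in macrophages through the factor ISGF3, which binds promoter elements built from GAAA repeats.

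Promoter sequences are shown first, as a description, and their part in the differences was not tested. RefSeq promoter windows of build GRCm38.p6, a later build than the mm9 named in the array design, were matched by symbol for 5 of the 6 genes. Usp18 had no entry. The 250 bases before each start were searched on both strands for a pair of GAAA with 2 bases between them, the repeat of the interferon-stimulated response element, for AANNGAAA, the shorter site of interferon regulatory factors that every such pair contains, and for TTCNNNGAA, the site of STAT dimers. The first was found in 2.98% of all 32851 windows, the second in 21.3% and the third in 7.02%. The Isg15 window held 3 overlapping GAAA pairs in a single run from -78 to -57 relative to the start. The Uba7 window held no GAAA pair and 1 AANNGAAA, on the reverse strand from -27 to -20. The 120 bases before each of these starts are printed 5′ to 3′ on the strand of the gene, with the bases of GAAA pairs and AANNGAAA matches in capitals. They lie at chr4:156200819-156200938 on the minus strand for Isg15 and at chr9:107975447-107975566 on the plus strand for Uba7.
Isg15: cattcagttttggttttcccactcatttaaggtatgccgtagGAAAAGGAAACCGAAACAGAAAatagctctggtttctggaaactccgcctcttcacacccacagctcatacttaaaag
Uba7: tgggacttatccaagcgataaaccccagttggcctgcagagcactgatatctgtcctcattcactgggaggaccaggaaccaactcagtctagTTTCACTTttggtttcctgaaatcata
In these windows Ube2l6 and Herc6 had none of the 3 motifs. Of 3 Isg20 windows, the first held 1 AANNGAAA and 1 TTCNNNGAA, and the other two held none. A match describes letters only, and binding was not measured.

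Each of the 6 genes was higher on the miR-122 array, by 2.75-fold for Ube2l6 at the low end and 10.02-fold for Isg20 at the high end. All 6 were at least 2-fold higher, whereas 4.57% of the 15022 genes were. Of the 6, 4 were at least 4-fold higher, whereas 0.812% of all genes were. The median log2 difference of the 6 was 2.41, against 0.09 over all genes. By probe, 9 of 9 were at least 2-fold higher, compared with 4.09% of 26625 probes well above background on both arrays, and 7 of 9 were at least 4-fold higher, compared with 0.747%. A level is the log2 signal after subtracting the 75th percentile of the array, a difference is miR-122 minus PBS, and a gene takes the value of its brightest probe. Fewer responding cells and less RNA per cell cannot be told apart in such bulk RNA.

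**Figure D1:**
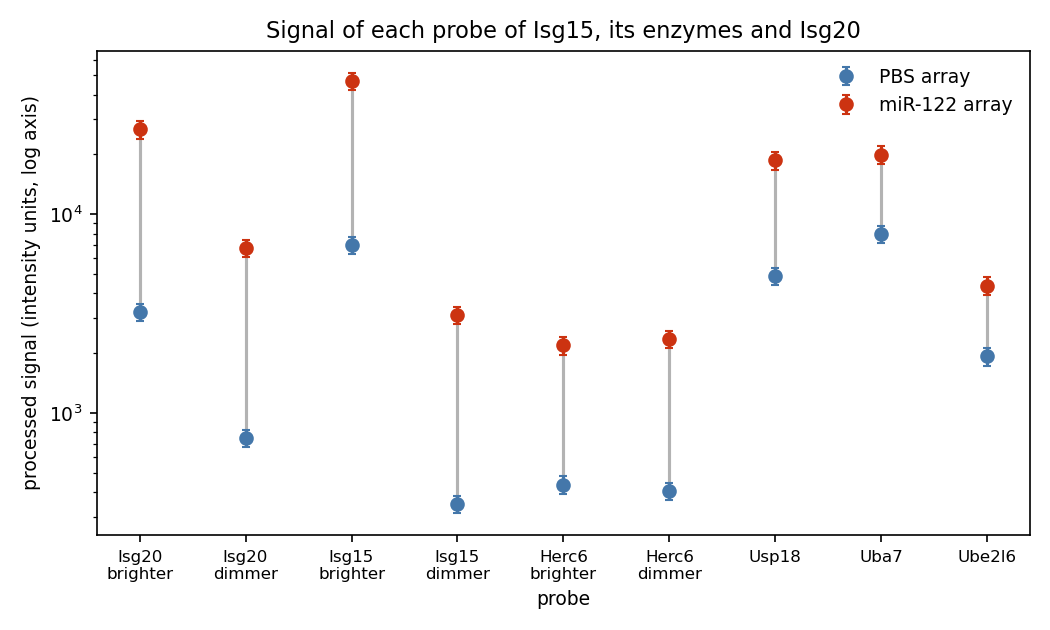
Processed signal (intensity units, log axis) of the 9 probes on the PBS array (blue) and the miR-122 array (red), before scaling, with bars for the error given by the scanner software and grey lines joining the arrays; genes are ordered by their difference. All 9 probes are brighter on the miR-122 array. Heights of different probes are not comparable, since each probe has its own brightness.

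Isg15 encodes the modifier itself, and its brighter probe gave an unscaled processed signal of 6975 with PBS and 46798 with miR-122. The scanner software attached errors of 698 and 4680 to these signals. Combined for the log2 difference, the error was the same 0.20 for every probe described here, so it is not a spread observed for this probe. The scaled level of the brighter probe was 4.05 on PBS and 7.07 on miR-122, a log2 difference of 3.02, or 8.13-fold. A second Isg15 probe was much dimmer, with signals of 350 and 3124, and differed by 3.43, or 10.8-fold. The probes of Isg15 thus differed from each other by 0.41 in their log2 difference while both lay above 8-fold. Isg15 ranked 39th among the 15022 genes by difference, so that 0.253% of the genes lay above it.

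Uba7 encodes the E1 enzyme that activates ISG15. Its single probe had signals of 7929 with PBS and 19935 with miR-122. The levels were 4.23 and 5.84, a difference of 1.61 or 3.05-fold. Ube2l6, the E2 gene, also had a single probe, with signals of 1927 and 4382. The levels were 2.19 and 3.66, a difference of 1.46 or 2.75-fold. These enzymes of the first and second steps had the smallest differences of the 6 genes and ranked 224th and 303rd.

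Herc6 encodes the mouse ISG15 ligase. The brighter probe had signals of 437 and 2190, which gave levels of 0.05 and 2.66. Its difference of 2.60, or 6.06-fold, ranked 60th. The other Herc6 probe had signals of 405 and 2365 and a difference of 2.82, or 7.08-fold. Both Herc6 probes therefore lay above both single-probe enzymes of the earlier steps.

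Usp18, the gene of the ISG15 protease, had 1 probe with signals of 4873 with PBS and 18654 with miR-122. The levels were 3.53 and 5.75. The difference was 2.21, or 4.64-fold, and ranked 96th. Usp18 lay between the ligase gene above it and the E1 and E2 genes below it.

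Isg20 encodes a 3′-to-5′ exonuclease of single-stranded RNA. Its brighter probe had signals of 3225 and 26688, its levels were 2.94 and 6.26, and its difference was 3.33, or 10.02-fold, ranked 34th. Its dimmer probe had signals of 749 and 6766 and a difference of 3.45, or 10.9-fold. The gap between the Isg20 probes was 0.13, the smallest among the 3 genes with a pair of probes.

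In the order of difference, Isg20 came first, followed by Isg15, Herc6, Usp18, Uba7 and Ube2l6, and this order was the same under every scaling, background correction and probe rule tried. The order rests on 1 array per group, so it is read against technical spread only. Different probes of 1 gene had a pooled standard deviation of 0.30 in their log2 difference over 3575 genes, and 0.16 over the 516 genes whose probes were at least as bright as the dimmest Herc6 probe. Isg20 and Isg15 were 0.30 apart and their probes overlapped in range, from 3.33 to 3.45 for Isg20 and from 3.02 to 3.43 for Isg15, so the arrays do not separate these neighbours. Uba7 and Ube2l6 were 0.15 apart, which is within either spread. The steps from Isg15 to Herc6, from Herc6 to Usp18 and from Usp18 to Uba7 were 0.42, 0.39 and 0.61. Each probe here was printed once, but among 112 probes printed 10 times with levels in the range of the 6 genes, the median standard deviation over spots was 0.04 on the PBS array. On the miR-122 array it was 0.05 over 43 such probes. The signal errors given by the scanner software combine to 0.20 for the log2 difference of each probe.

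**Figure D2:**
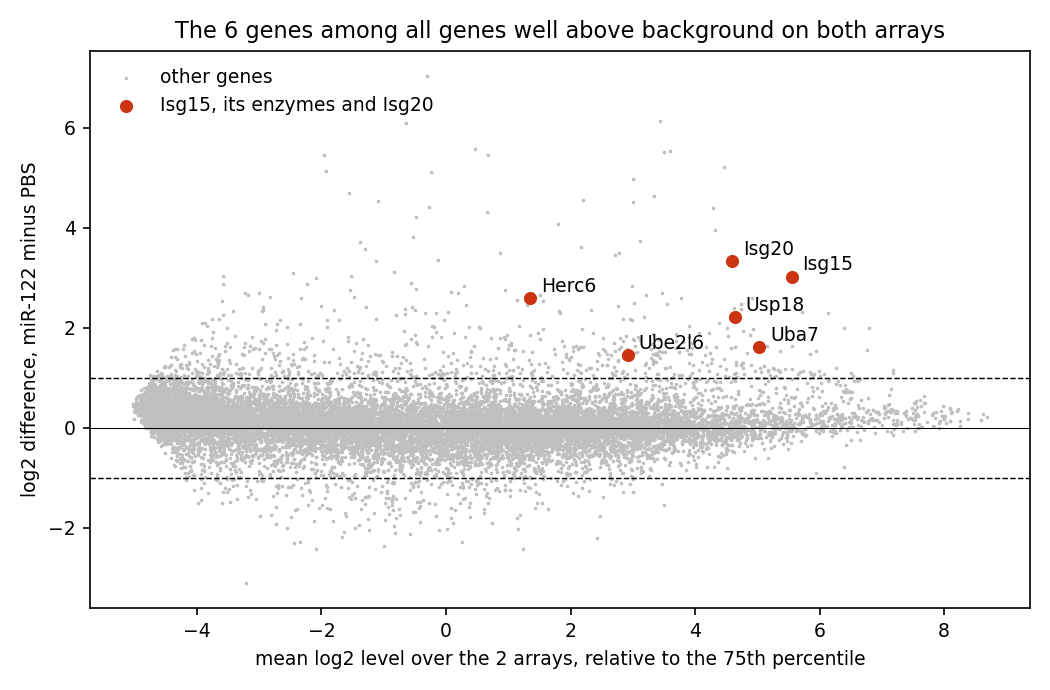
Log2 difference, miR-122 minus PBS, against the mean log2 level over both arrays relative to the 75th percentile, for 15022 genes (grey) and the 6 genes (red); dashed lines mark 2-fold. All 6 lie above the upper dashed line, between 1.46 and 3.33, at levels away from the dim end of the arrays.

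All 6 genes stayed at least 2-fold higher after a further background correction, which moved the dimmer probes most. Of the spots of the 6 genes the dimmest, the second Isg15 probe on the PBS array, had a median pixel brightness of 364 over a local background of 17. Normexp, a background correction that compresses dim signals, gave that probe 3.10 in place of 3.43, and left the brighter Isg15 probe at 7.99-fold. Herc6 differed by 2.34 with normexp, or 5.08-fold, and the other genes moved by less. Normalization by the authors, whose log2 values stand in the deposited series matrix, gave 3.16 for Isg20, 2.85 for Isg15, 2.56 for Herc6, 2.03 for Usp18, 1.43 for Uba7 and 1.37 for Ube2l6. Scaling on the median moved all genes by -0.18, and relative to the median of all genes the 6 differed by 1.37 to 3.23 with either scaling.

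**Figure D3:**
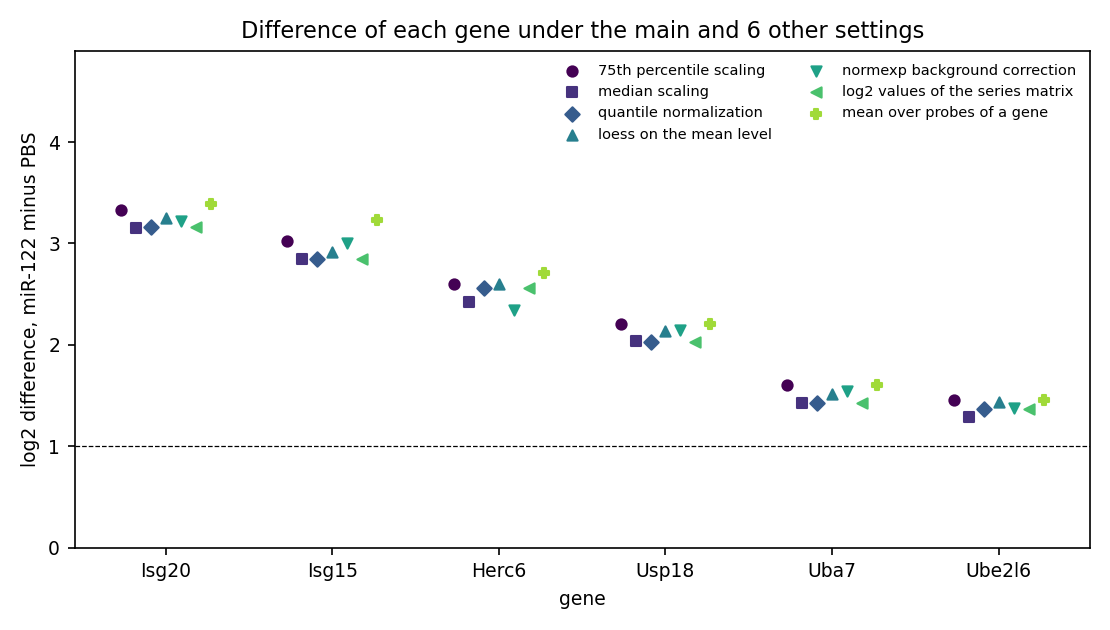
Log2 difference, miR-122 minus PBS, of each of the 6 genes under the main setting (75th percentile scaling) and under other normalizations, normexp, the authors' log2 values and the mean over probes. Every point lies above the dashed 2-fold line, and the genes keep their order from Isg20 to Ube2l6.

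Each gene was next set beside a group of related genes chosen by name, which for Isg20 are exonucleases of more than one protein family. Isg15 differed by 3.02, while 18 measured genes of ubiquitin and other ubiquitin-like modifiers had a median of 0.14. None of the 18 was 2-fold higher or lower, where 4.57% and 1.78% of all genes were. The highest of them was the polyubiquitin gene Ubb with 0.73. Uba7 differed by 1.61, while 9 E1 genes and E1 subunits of other modifiers ranged from -0.48 for Sae1, a subunit of the SUMO E1, to 0.33 for the ubiquitin E1 gene Uba1. The 4 other HERC genes lay between -0.55 for Herc2 and -0.10 for Herc4, with Herc3 at -0.13, against 2.60 for Herc6. These 3 group medians of 0.14, -0.05 and -0.15 were close to the 0.09 of all genes.

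Besides Ube2l6, 31 genes whose symbol starts with Ube2, the E2 genes and the pseudogene Ube2d-ps, were measured, with a median of 0.11. None of the 31 was at least 2-fold higher, where 4.57% of all genes were. Of the 31, 2 were at least 2-fold lower, where 1.78% of all genes were that low. They are Ube2t, an E2 gene of DNA crosslink repair, with -1.28 and Ube2c, an E2 gene of mitosis, with -1.03, and with normexp they were under 2-fold at -0.38 and -0.80. Ube2l3, the nearest relative of Ube2l6, which works with ubiquitin, had a level of 4.99 on PBS and 5.30 on miR-122, a difference of 0.31. The highest E2 gene was Ube2h with 0.82, which is 0.64 below Ube2l6, so this gap is the narrowest between any of the 6 genes and its group.

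Among 46 other genes whose symbol starts with Usp and a digit, the median difference was 0.05. These 46 belong to the ubiquitin-specific protease family apart from Usp6nl, the gene of a Rab GTPase-activating protein. Of the 46, 1 was at least 2-fold higher, where 4.57% of all genes were. This higher gene was Usp25, whose levels were 2.09 and 3.43, a difference of 1.34 or 2.53-fold. Usp18 lay 0.87 above it. The lowest was Usp20 with -0.85, followed by Usp1, a deubiquitinase of DNA repair, with -0.75 and Usp48 with -0.70. Among 13 exonuclease genes besides Isg20, the median was 0.02. Of the 13, 1 was at least 2-fold higher, where 4.57% of all genes were: the DNA exonuclease gene Trex1 with 1.93. The RNA exonuclease gene Xrn1 followed with 0.92, Trex2, dim on both arrays, with 0.88, and Xrn2 with 0.51, while the close relative Isg20l2 differed by 0.02. Every one of the 6 genes thus had a larger positive difference than all measured genes it was set beside, a description with no test behind it.

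**Figure D4:**
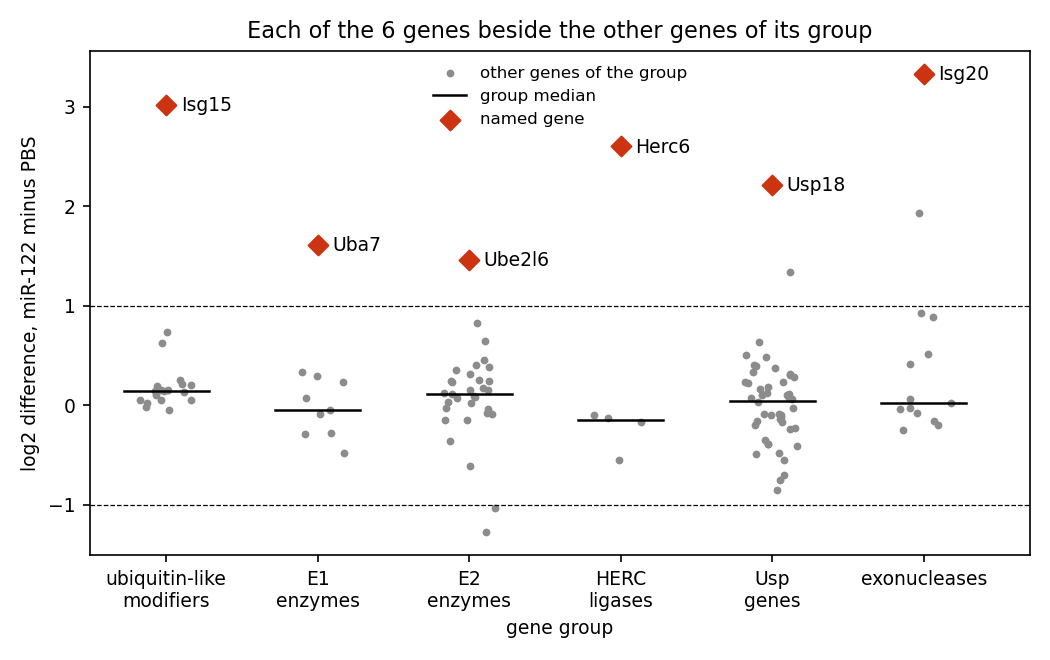
Log2 difference, miR-122 minus PBS, of the measured genes of 6 groups chosen by name (grey points, black line at the group median), with the gene of the ISG15 system or Isg20 as a red diamond; dashed lines mark 2-fold. Each diamond lies above all grey points of its group, with Usp25 and Trex1 the only grey points above the upper line.

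Among other genes known or proposed to act on or with ISG15, all those measured except Trim25 lay between -0.44 and 0.23. The 7 measured were further candidate ligases, the integrin receptor chains and candidate deconjugases, with a median of -0.10. Of the 7, 1 was at least 2-fold higher, where 4.57% of all genes were, and none was 2-fold lower, where 1.78% were. Trim25, a ubiquitin ligase that is itself ISGylated and is also reported as an ISG15 ligase in human cells, had levels of 4.11 and 5.21, and was 2.14-fold higher. With median scaling, with quantile normalization and in the deposited log2 values of the authors it was just under 2-fold, at 0.91 to 0.92. Arih1, another reported ISG15 ligase, differed by 0.23. The LFA-1 chains Itgal and Itgb2 differed by 0.14 and -0.44, and the proteases Usp2 and Usp14 by -0.39 and -0.16.

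Genes of the interferon pathway that drives the ISG15 system were read from a list of 10. Among the 9 with a measured difference, 4 were at least 2-fold higher, where 4.57% of all genes were, none was 2-fold lower, where 1.78% were, and the median was 0.74. The transcription factor genes Irf7 and Irf1 were 4.93-fold and 4.43-fold higher, or 3.70-fold and 4.02-fold with normexp, and Stat2, a component of ISGF3, and the receptor kinase gene Tyk2 differed by 1.60 and 1.41. Irf9, the DNA-binding component of ISGF3, differed by 0.74, and the receptor genes Ifnar1 and Ifnar2 by 0.21 and -0.12. Irf7, Irf1, Stat2, Tyk2 and Irf9 thus differed more than the receptor chains. The factor gene Irf3 and the receptor kinase gene Jak1 did not, at 0.08 and 0.20.

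The proteins reported to carry ISG15, mostly from studies of human or mouse cells, were represented by 27 measured genes. Of these 27, 8 were at least 2-fold higher, where 4.57% of all genes were, none was 2-fold lower, where 1.78% were, and the median was 0.24. The largest differences belonged to the antiviral genes Ifit3 with 4.39 and Ifit1 with 3.95, although a probe may not tell Ifit genes from their near-identical relatives. The RNA sensor genes Ifih1 and Ddx58 differed by 2.39 and 1.59, and the nuclear body gene Pml by 1.87. With median scaling 5 of the 27 were at least 2-fold higher, where 3.14% of all genes were. This list shares genes with the lists above, among them Trim25, Irf3, Jak1 and Uba1.

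The genes whose difference lay nearest to that of Isg15, by the absolute gap between log2 differences over the 2 arrays, were Cd69, Gm13889 and Tex14, with gaps of 0.020, 0.021 and 0.024. All 3 were dim on the PBS array, at levels between -5.11 and -3.05, and with normexp they differed by 1.22, 1.97 and 1.66. Nearest to Usp18 were Nlrc5, 9930111J21Rik2 and Nod1, with gaps of 0.003, 0.030 and 0.030. Of these, 9930111J21Rik2 and Nod1 were dim on the PBS array, at -4.84 and -2.22, and with normexp they differed by 0.87 and 1.66, against 2.11 for Nlrc5. With 2 arrays this likeness is one number per gene and says nothing more about the genes.

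The label of the cells was set against marker genes. Of 12 macrophage markers 10 were well above background on both arrays, including Itgam at levels of 3.72 and 2.87 and Adgre1 at 1.67 and 1.09. The 10 had a median difference of -0.15, and among them Fcgr1, the high-affinity Fc receptor gene, differed most, by 3.34. Fcgr1 was dim on the PBS array, at -2.79, and its 10.1-fold difference was 5.25-fold with normexp. Mertk, another macrophage marker, was not well above background on either array. Lists for 7 other cell types had 2 to 5 measured genes each and medians between 0.39 and 0.55, beside 0.09 over all genes. Many of these genes were dim on both arrays. With the other normalizations, normexp and the authors' values, the medians of the 7 lists lay between 0.08 and 0.46. Over these lists, the log2 of summed scaled signals ran from -3.96 to 6.21 on PBS and from -3.55 to 6.26 on miR-122. For the macrophage list it was 8.36 on PBS and 8.20 on miR-122. These sums add probes of unlike brightness over unlike numbers of genes, so they do not measure cell type content. The highest of the other sums, that of dendritic cells, was almost all Siglech. Of the 47 genes of the 7 other lists on the arrays, 27 were well above background on both arrays and 12 on neither. The former include the dendritic cell gene Siglech at 6.20 and 6.25, the B cell gene Cd22 at 2.43 and 3.09, the neutrophil genes Elane at 1.86 and 1.94 and S100a8 at 0.51 and 0.86, and the T cell genes Cd4 at 0.90 and 0.96 and Il7r at 0.22 and 1.08. The latter include Alb, Apoa1, Cd3d, Ms4a1, Cd79b and Lum. At least 2-fold higher were the dendritic cell gene Zbtb46, by 8.51-fold or 3.42-fold with normexp, and the T cell gene Lck, by 2.03-fold or 1.78-fold with normexp, and none was 2-fold lower. The part of other cells in the differences was not tested.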

How the data were processed

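The deposited scanner files hold spot intensities that, per the file headers, version 11.0.1.1 of Agilent Feature Extraction made: processed signals, background-subtracted and detrended, with no normalization between arrays. The deposited series matrix holds the authors' log2 values, with a normalization not given in the sources used here. Its columns both have a median of 5.16, are not centred by gene, and correlate across probes with log2 scanner signals, at 0.997 within an array and 0.985 between arrays.

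Of 44397 spots per array, 1377 controls and 145 (PBS) or 196 (miR-122) spots marked as outliers were left out, and no spot was saturated. Log2 processed signals of a probe's spots were averaged and the array's 75th percentile was subtracted; these percentiles differed by -0.28, miR-122 minus PBS. Well above background were 71.9% and 70.1% of non-control spots. Accessions were matched without versions to RefSeq gene names, for 27234 probes. Each gene is represented by its brightest probe, where probes that were not well above background on either array were left aside. A probe with several spots counted as well above background where at least 50% of them did; of 4 such rules tried, this one was kept because it gave the number of measured genes of an earlier analysis of these data. A gene measured on 1 array only has a bound, set against the lowest measurable level of the other array, or against the probe's own level there if higher. Probe sequences were not used here, so where a probe lies on its transcript is not given.

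Because each group held 1 array, there was no test, and genes were counted at 2-fold. The members and gene lists were chosen with earlier results of these data known. Named are the 6 members and up to 4 genes with the largest absolute difference per list. Ube2l3, Uba1, Herc3 and Isg20l2, and the 3 genes nearest to Isg15 and to Usp18, are named as well. The Ddx58, Itgal, Irf3, Irf9, Ifnar1, Ifnar2, Jak1, Usp14 and marker values were added for their roles after values were seen. Values of some list genes that this rule would name are not reported here. Signals were processed with R 4.3.3, limma 3.58.1, Python 3.11.15, numpy 2.4.6 and pandas 2.3.3, and the counts were checked on simulated arrays.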

Additional observations from a re-analysis of the deposited data

How the results depend on the processing

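All 54 values of the 6 genes under 9 other settings (scaling on the median, quantile normalization, loess with a span of 0.3, normexp with its offset at 50, the log2 values of the authors, no filter or a stricter filter on dim probes, the mean over probes, and marked spots kept) kept their sign and stayed within the 0.30 spread between probes of a gene. That spread includes dim probes, and over probes at least as bright as the dimmest Herc6 probe it was 0.16. Against 0.16, all 6 genes moved further with median scaling, and so did Herc6 with normexp, at 2.34 in place of 2.60. The settings are not all separate checks. Changing the filter on dim probes could not move these values, and median scaling shifted every gene by the same -0.18. Quantile normalization and the authors' values gave the 6 genes the same differences to 2 decimals. By probe, the dimmer Isg15 probe left the 0.30 spread with normexp, at 3.10 in place of 3.43. Shares of all genes moved more: against 4.57% at least 2-fold higher and 1.78% lower, normexp gave 2.59% and 0.953%, a 1.5-fold threshold 12.1% and 5.99%, and a 4-fold threshold 0.812% and 0.113%. Median scaling gave 3.04% lower genes, and with it the share of higher genes among those past 2-fold was 50.8% in place of 71.9%; with quantile normalization and with the authors' values it was 59.9%. No filter on dim probes gave 1358 higher genes in place of 687 and 451 lower in place of 268. The other 3 rules for the background flag, added after seeing the data, left 14997 to 15040 genes in place of 15022. They could not change the differences of the 6 genes, whose probes each had 1 spot, well above background on both arrays. No paired analysis was possible because each group held 1 array and no test was run; leaving out a replicate was not possible for the same reason. Having 1 array per group sets the precision of every difference, and the dimmest values, such as that of Trex2, are limited by background.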

Other observations

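The chromosomal neighbours of the 6 genes were read from RefSeq gene order, 3 protein-coding genes to each side. Of 36 neighbours 29 were well above background on both arrays, with a median difference of 0.06, close to the 0.09 of all genes. At least 2-fold higher were 3 of the 29, where 4.57% of all genes were, and 1 was at least 2-fold lower, where 1.78% were. Iqsec3, near Usp18, was well above background only on the PBS array, and its bound of -1.22 puts it at least 2-fold lower as well. The 3 are Tuba8, an alpha-tubulin gene next to Usp18, with 1.28, Ppm1k, a mitochondrial phosphatase gene next to Herc6, with 1.21, and Plekhn1, near Isg15, with 1.08. The lower gene was Traip, a ubiquitin ligase gene of DNA replication next to Uba7, with -1.55. With normexp the 3 higher neighbours were under 2-fold, at 0.56, 0.88 and 0.72, and Traip differed by -1.12. These neighbours were named after their values were seen. The exonuclease gene Aen, next to Isg20, differed by 0.06, and the 5 neighbours of Isg20 besides it lay between -0.30 and 0.08.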
